A study of Mus musculus with 12 samples.

Results

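The RNAs described here are opposite-strand RNAs, long non-coding RNAs that carry the symbol of a protein-coding host gene with the ending os because they are annotated on the other strand of that gene. They were taken by symbol, as every gene in either table whose symbol ends in os or in os and a number, which gave 35 of the 1247 listed genes. One of the 35 is not such an RNA: Uros is the protein-coding gene of uroporphyrinogen III synthase, an enzyme of haem synthesis, and its name only happens to end in these letters. The other 34, all long non-coding RNAs in the RefSeq annotation, are named after 31 host genes. All 34 were listed for cocaine and 14 of them also for saline.

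The tables come from CLIP-seq of YTHDF1 in striatum of wild-type (WT) C57BL/6J mice treated with cocaine or Saline, with 3 CLIP and 3 input libraries from each treatment, 12 in all. The sources used here do not give dose, timing, age or the number of animals. Nothing in the labels says that the 3 libraries of a treatment came from separate mice, so a p-value reflects just the spread among these libraries, which may be technical. Each table counts the CLIP peaks of a gene in 3 libraries, which are called 1 to 3 below by the order of their columns. Input values were not analysed here, so peaks are not corrected for the abundance of an RNA. In bulk tissue, fewer cells of a type and less RNA per cell cannot be told apart.

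CLIP fixes a protein to the RNA it touches with ultraviolet light and recovers that RNA with an antibody against the protein. YTHDF1 is a reader of N6-methyladenosine (m6A), a methyl mark on adenosines that lie mostly in a short consensus around the letters GGAC or similar ones, and it is best known in the cytoplasm, where it promotes translation of marked mRNAs. Antisense and opposite-strand RNAs are transcribed across a coding gene in the other direction. Some, such as Dlx6os1 (also known as Evf2), regulate their neighbours, and for most of them no function is established.

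The cocaine libraries held 24770 to 25528 peaks in all listed genes and the saline libraries 3720 to 3944, and the number of reads behind them is unknown. The listing differs too: every gene listed has at least 1 peak in each of its 3 libraries, and its mean is above 6 peaks for cocaine and above 1 for saline. A gene missing from a table did not meet these conditions and is not at 0. The labels name striatal neurons as cell type, but only 1 of 14 marker genes of striatal projection neurons was listed (Gad1, for saline), and Drd1, Drd2 and Ppp1r1b were in neither table; 6 of 28 markers of glia, vessels and cortical neurons were listed. A further 348 listed genes have no symbol, so some opposite-strand RNAs may be among them.

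RefSeq holds 217 non-coding genes whose symbols follow the same rule, and 34 of them were listed (15.7%), beside 1.22% of all 12740 non-coding and 3.34% of all 21896 coding genes. The 348 listed genes without a symbol could not be matched to RefSeq. Each of these shares may therefore be too low, by amounts that may differ. The listed opposite-strand RNAs are longer: their median span was 21.8 kb, against 7.14 kb in the 183 that were not listed. Of the 34, 19 lie wholly within the span of their host, 12 overlap it in part and 3 lie beside it without overlap (Brip1os, Ino80dos and Mkln1os). For 22 of the pairs RefSeq gives a start and strand for both the RNA and the host, and all 22 are on opposite strands. The nearest starts of these pairs were 55 to 366580 bases apart with a median of 49359, and 16 of the 22 pairs had starts over 10 kb apart. Of the 27 RNAs that could be placed along a host of known strand, 5 reach past the host's start, 6 past its end and 16 lie inside, 12 of these with their midpoint in the 50% of the host farther from its start. For the other 12 RNAs the strand of the RNA or of its host was not in the RefSeq start table, and their opposite strand is known from the symbol alone.

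**Figure D1:**
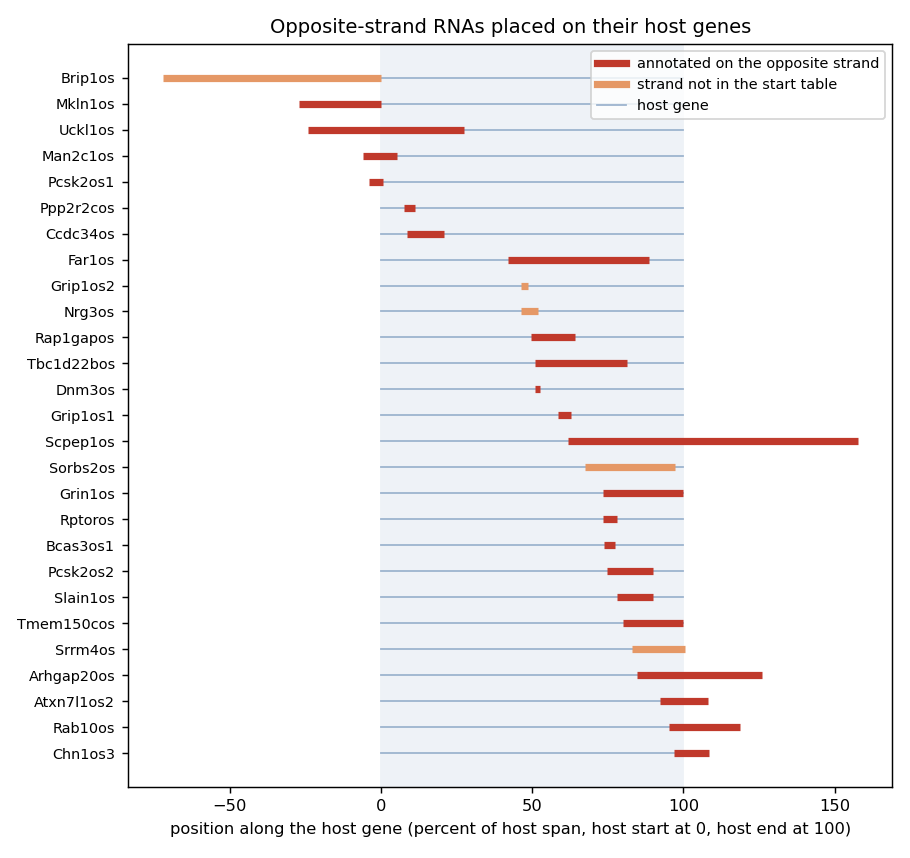
Each line is a host gene scaled to 0 at its start and 100 percent at its end, and each thick bar is the span of its opposite-strand RNA on that scale, for the 27 RNAs whose host has a known strand. Brip1os and Mkln1os lie before the start of the host, while Nrg3os and Dnm3os lie in its middle and Chn1os3 and Rab10os reach past its end.

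The start regions of 5 RNAs are printed to show what kinds of sites these RNAs begin at. They were chosen for a neuronal receptor host (Grin1os), for a called difference (Pcsk2os2), for the most peaks outside the saline table (Far1os), for the most peaks per kb (Man2c1os) and for a start shared with the host (Mkln1os). Each runs 5′ to 3′ on the strand of the RNA, from 250 bases before its start to 50 bases after it, so that only the last 50 bases are RNA, and capitals mark GGAC, the core of the m6A consensus, and its reverse complement GTCC. The sequences are from RefSeq, build GRCm38.p6.
Grin1os, chr2:25291008-25291307, plus strand: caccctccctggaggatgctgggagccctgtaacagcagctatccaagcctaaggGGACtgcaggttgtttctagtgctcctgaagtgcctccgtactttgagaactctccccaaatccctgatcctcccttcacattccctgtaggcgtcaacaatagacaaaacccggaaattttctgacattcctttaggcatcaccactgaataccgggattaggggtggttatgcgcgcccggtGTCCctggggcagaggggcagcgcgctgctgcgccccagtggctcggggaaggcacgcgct
Pcsk2os2, chr2:143789137-143789436, minus strand: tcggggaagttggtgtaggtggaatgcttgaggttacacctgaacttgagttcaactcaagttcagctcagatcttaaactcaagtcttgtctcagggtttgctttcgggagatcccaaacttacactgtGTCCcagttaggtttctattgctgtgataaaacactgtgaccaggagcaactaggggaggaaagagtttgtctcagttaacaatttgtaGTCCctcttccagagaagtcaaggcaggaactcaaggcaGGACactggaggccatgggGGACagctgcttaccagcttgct
Far1os, chr7:113564938-113565237, minus strand: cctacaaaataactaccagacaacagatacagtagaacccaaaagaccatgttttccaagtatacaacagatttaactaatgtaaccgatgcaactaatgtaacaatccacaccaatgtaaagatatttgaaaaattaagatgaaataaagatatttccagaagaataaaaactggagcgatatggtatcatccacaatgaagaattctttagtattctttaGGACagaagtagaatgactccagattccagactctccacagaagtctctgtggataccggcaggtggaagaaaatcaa
Man2c1os, chr9:57131241-57131540, minus strand: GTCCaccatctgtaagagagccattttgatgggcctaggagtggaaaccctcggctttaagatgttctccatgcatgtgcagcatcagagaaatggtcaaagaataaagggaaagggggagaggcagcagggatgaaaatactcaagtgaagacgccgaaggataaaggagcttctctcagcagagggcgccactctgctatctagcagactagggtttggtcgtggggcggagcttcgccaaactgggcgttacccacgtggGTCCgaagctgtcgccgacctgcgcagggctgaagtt
Mkln1os, chr6:31398724-31399023, minus strand: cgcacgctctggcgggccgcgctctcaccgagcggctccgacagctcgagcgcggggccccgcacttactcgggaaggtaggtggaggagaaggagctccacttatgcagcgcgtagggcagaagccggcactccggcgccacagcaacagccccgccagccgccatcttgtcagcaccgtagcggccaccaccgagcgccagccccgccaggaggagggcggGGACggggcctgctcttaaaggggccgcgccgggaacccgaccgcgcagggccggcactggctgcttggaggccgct

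The Mkln1os window also holds the start of Mkln1, the gene of muskelin, since the 2 RNAs begin 55 bases apart and run in opposite directions. Pcsk2os2 has 2 GGAC within its first 50 bases, whereas the other printed RNAs have none there. Over the 26 opposite-strand RNAs with a start window in the RefSeq table, 24 held GGAC on either strand (92.3%), beside 87.7% of all 32851 windows of the same length. Within the first 50 bases and on the strand of the RNA, 4 of the 26 held it (15.4%), beside 18.9% of all windows. The deposited tables give no peak positions, so these letters are a description of the starts and not of the bound sites.

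Hosts were grouped by role with earlier results of these data known, and differences between role groups were not tested. The RNAs named after hosts with a synaptic role had a median of 41.2 peaks in cocaine. These 6 RNAs, of 5 hosts, ranged from 9 to the 216.3 of Sorbs2os, and 5 of them were also listed for saline. Sorbs2os lies in Sorbs2, the gene of an adaptor protein that links receptors to the actin skeleton, on chromosome 8 from 45723325 to 45819297. It had 210, 235 and 204 peaks in the cocaine libraries and 24, 41 and 32 in the saline libraries, a mean 6.69 times as high in cocaine. All 3 cocaine libraries were above all 3 saline libraries, which held for 77.7% of all genes in both tables. The median ratio of those genes was 4.54, and both values are the background for the RNAs below too. Of the peaks in the 14 opposite-strand RNAs of both tables, Sorbs2os alone held 28.6% ± 2.36 in the cocaine libraries and 29.2% ± 9.94 in the saline libraries (SD, n = 3 each). These ranges overlap.

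Nrg3os lies in the middle of Nrg3, whose product neuregulin 3 is a ligand of the ErbB4 receptor, on chromosome 14 from 38898302 to 38958794. Its cocaine libraries had 88, 101 and 96 peaks and its saline libraries 8, 5 and 14, the steadiest cocaine values of the whole group with a coefficient of variation of 6.90%. Grin1os lies at the far end of Grin1, which encodes the obligatory subunit of NMDA receptors, on chromosome 2 from 25291258 to 25298660. Its peaks numbered 52, 45 and 76 in cocaine and 21, 6 and 21 in saline. This was the smallest ratio among the opposite-strand RNAs in both tables (3.60), with saline library 2 well below the other two, although the treatments did not overlap.

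Grip1, the gene of a PDZ scaffold protein of AMPA receptors, carries a pair of them. The cocaine libraries had 25, 17 and 32 peaks in Grip1os2 and the saline libraries 4, 2 and 6, without overlap. In Grip1os1 the cocaine libraries had 9, 18 and 27 and the saline libraries 2, 9 and 2, so that its lowest cocaine library equals its highest saline library and the treatments overlap. Dnm3os lies in Dnm3, which encodes a dynamin of membrane fission, and was listed for cocaine alone with 15, 6 and 6 peaks. It is the RNA from which the microRNAs of the Mir199a-2 and Mir214 genes are cut, and both genes lie within its span on the same strand. Their mature sequences are printed from RefSeq, with the seed (bases 2 to 8) in capitals. The 4 seeds differ, and whether any peak lay on them is not given by the tables.
miR-199a-5p: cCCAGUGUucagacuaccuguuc
miR-199a-3p: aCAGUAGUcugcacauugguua
miR-214-5p: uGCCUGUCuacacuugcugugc
miR-214-3p: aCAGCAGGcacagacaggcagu

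Among RNAs named after genes of nuclear proteins, 2 of 7 were in both tables. Brip1os lies beside Brip1, the gene of a DNA repair helicase, on chromosome 11 from 86201360 to 86304443, and overlaps the coding genes Ints2 and Med13, which were in neither table. Its cocaine libraries had 97, 77 and 78 peaks and its saline libraries 4, 12 and 7, a mean 10.96 times as high in cocaine. Rsf1, the gene of a chromatin remodelling factor, carries 2 RNAs of almost equal length, 46.8 kb for Rsf1os1 and 46.6 kb for Rsf1os2. Rsf1os2 had 61, 55 and 50 cocaine peaks and 7, 5 and 13 saline peaks, and its neighbour Rsf1os1 had 25, 47 and 35 in cocaine and was not listed for saline. Per kb of span they had 1.19 and 0.763 peaks in cocaine. Srrm4os, named after the gene of a neuronal splicing factor of microexons, had 36, 28 and 24 peaks in cocaine alone. Atxn7l1os2, Ino80dos and Dlx6os1 were also listed for cocaine alone, and Dlx6os1, which spans the homeobox gene Dlx6 of GABAergic neuron development, had few, with 9, 6 and 5.

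Of 7 RNAs named after genes of enzymes, 3 were in both tables. Pcsk2os2 lies in Pcsk2, the gene of prohormone convertase 2, which cuts neuropeptides from their precursors. Its cocaine libraries had 51, 67 and 55 peaks and its saline libraries 6, 5 and 5, without overlap and with little spread in saline. Pcsk2os1, at the start of the same host, had 5, 15 and 4 in cocaine and was not listed for saline. St8sia3os, named after a sialyltransferase gene, had 32, 17 and 11 cocaine peaks and 4, 2 and 3 saline peaks. Scpep1os, named after a serine carboxypeptidase gene, had 1, 14 and 6 cocaine peaks and 1, 1 and 2 saline peaks. Its cocaine libraries spread 14-fold, the widest of the group, and overlap the saline ones.

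Far1os lies in Far1, which encodes a fatty acyl-CoA reductase of ether lipid synthesis. It had 38, 74 and 81 peaks in cocaine, more than any other opposite-strand RNA that was not listed for saline. Above a cocaine mean of 50 peaks there were 86 genes, of which 79 were also listed for saline (91.9%), and Far1os was the 1 of 8 opposite-strand RNAs at that level that was not. Its saline value is unknown. Man2c1os, at the start of the mannosidase gene Man2c1, had 23, 20 and 40 peaks in a span of 1.31 kb. Uckl1os, named after a uridine kinase gene, had 9, 27 and 19.

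RNAs named after signalling genes came to a median of 30.3 cocaine peaks for the 3 hosts that act on small GTPases and 20.8 for the 2 of the kinase and phosphatase group. Rap1gapos lies in Rap1gap, the gene of a protein that switches off the small GTPase Rap1, with 28, 27 and 45 cocaine peaks and 3, 3 and 2 saline peaks. Its ratio of 12.5 was the largest of the 14, with small saline values in its denominator. Chn1os3, at the end of the Rac regulator gene Chn1, had 40, 28 and 23 peaks and Arhgap20os, at the end of its host, 33, 31 and 19, both in cocaine alone. Rptoros lies in Rptor, the gene of the mTORC1 scaffold raptor, with 15, 22 and 21 cocaine peaks and 3, 3 and 4 saline peaks. Ppp2r2cos, named after a regulatory subunit gene of protein phosphatase 2A, had 14, 31 and 22 in cocaine alone.

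The 3 RNAs of membrane traffic hosts were all in cocaine alone and low. Rab11fip4os1 had 4, 26 and 11 peaks, a 6.50-fold spread between libraries, Tbc1d22bos 8, 13 and 4, and Rab10os 6, 10 and 4. Of the remaining RNAs, 2 were in both tables. Bcas1os2 lies in Bcas1, a gene of myelinating oligodendrocytes, with 43, 53 and 72 cocaine peaks and 16, 4 and 18 saline peaks; as for Grin1os, saline library 2 was the lowest. Cnp, another oligodendrocyte gene, had 38.7 ± 8.39 cocaine peaks and 3.33 ± 0.577 saline peaks (SD, n = 3 each), and the part of oligodendrocyte RNA in the Bcas1os2 values was not tested. Bcas3os1 had 11, 18 and 11 cocaine peaks and 3 in each saline library. Mkln1os had 21, 19 and 26, Tmem150cos 15, 6 and 8, Ccdc34os 6, 7 and 12, and Slain1os 6, 10 and 3, all in cocaine alone. Slain1os, with a mean of 6.33, is at the lowest mean listed for cocaine.

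**Figure D2:**
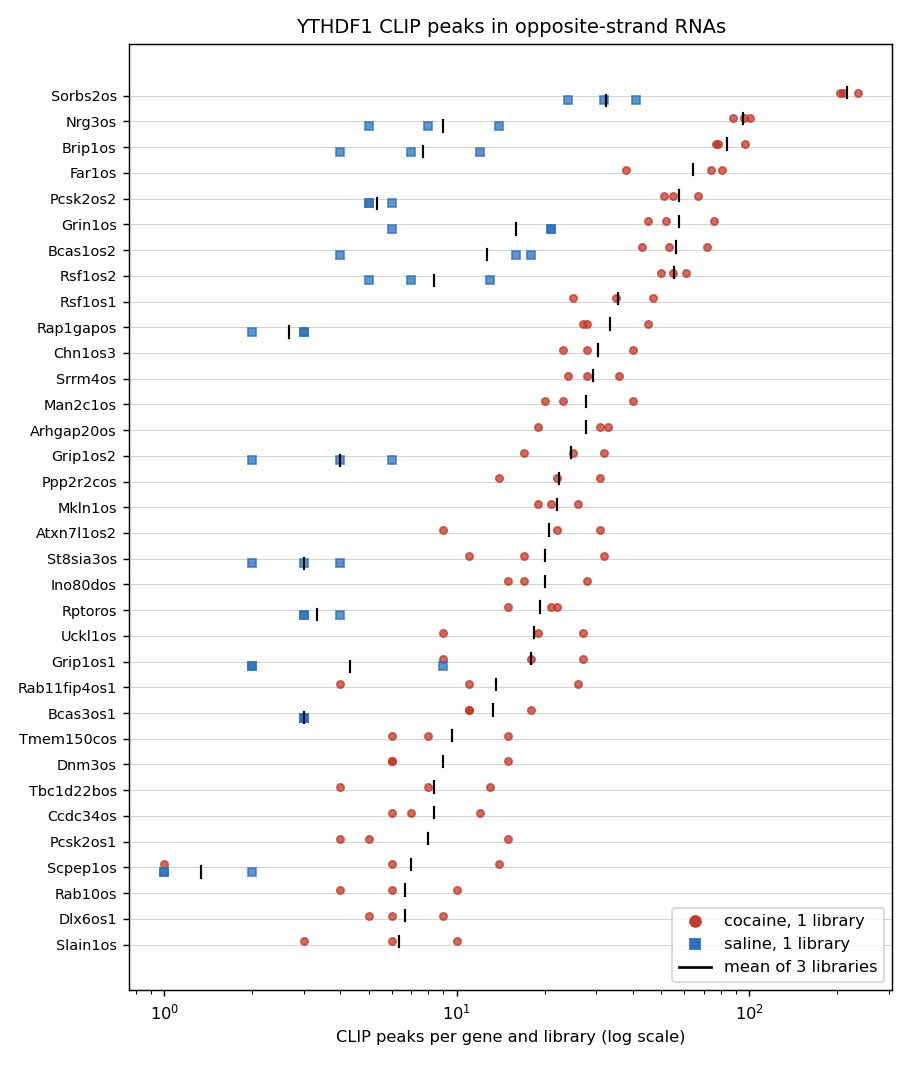
Number of CLIP peaks (log axis) in each library for the 34 opposite-strand RNAs, ordered by their cocaine mean, with circles for cocaine libraries, squares for saline libraries and bars for means of 3. The 20 RNAs with no squares, Far1os the highest of them, are not listed for saline, and Sorbs2os stands at the top in both treatments.

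Of the 31 host genes 2 were listed, where 3.34% of all RefSeq coding genes were listed. The other 29 were in neither table, so that 31 of the 34 RNAs were listed without their host. Grip1 was in both tables, at 14, 7 and 15 cocaine peaks and 11, 5 and 2 saline peaks over a span of 634 kb, and Bcas3 was in the cocaine table with 11, 7 and 14 over 473 kb. Per kb of span, Grip1 had 0.0189 peaks in cocaine against 0.662 for Grip1os1 and 1.58 for Grip1os2, and Bcas3 had 0.0226 against 0.760 for Bcas3os1. Of 33 opposite-strand RNAs that overlap any coding gene, 3 had one of these genes listed (9.09%), beside 11 of 104 other listed non-coding RNAs that overlap a coding gene (10.6%). The 2 shares are near each other. The sources used here do not say how the authors assigned a peak where genes overlap, and a peak in the overlap of an RNA and its host could have been counted for either.

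Per kb of gene span, the opposite-strand RNAs had a median of 0.916 peaks in cocaine (interquartile range 0.586 to 1.58). The median over all 715 listed cocaine genes with a known span was 0.390, that of 110 other non-coding genes 1.22 and that of 566 coding genes 0.281. The spans include introns. The highest values belonged to short RNAs: Man2c1os had 21.1 peaks per kb, Grin1os 7.79 and Ppp2r2cos 6.80. The lowest were those of Dlx6os1 (0.131) and St8sia3os (0.167), whose spans are long. Since a listed gene needs a mean above 6 peaks, a short gene cannot be listed with few peaks per kb, and this cutoff shapes the order. Sorbs2os, with 2.25 peaks per kb over 96.0 kb, was far above the cutoff for its length. Across the 34 RNAs, span and cocaine peaks had a Spearman correlation of 0.369 and Pearson's r of 0.356 on the log2 scale, given as a description over RNAs that share the same libraries. The Spearman correlation was 0.156 over other non-coding genes, 0.0420 over coding genes and 0.00248 over all listed genes.

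**Figure D3:**
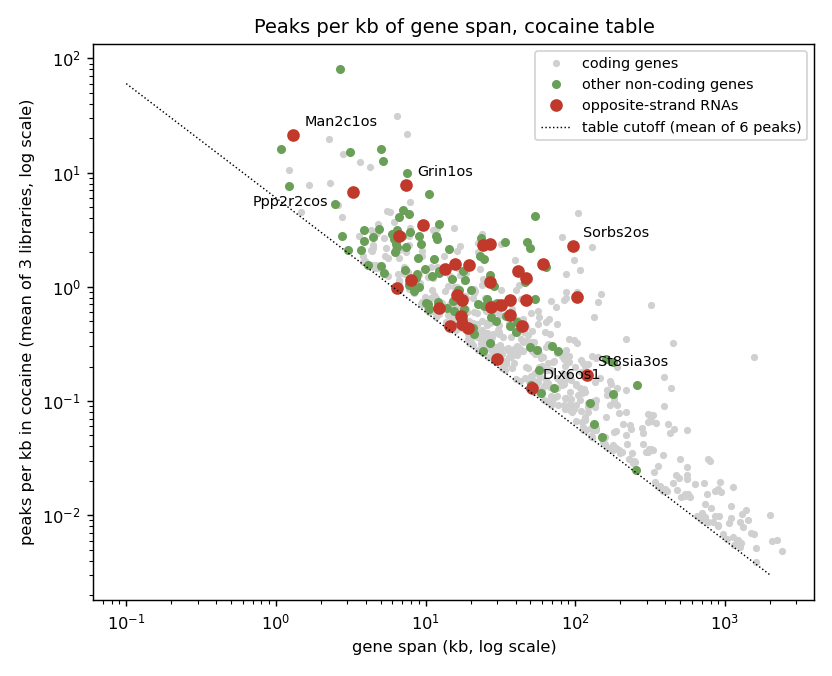
Mean cocaine peaks per kb of gene span against the span in kb (both axes log) for opposite-strand RNAs, other non-coding genes and coding genes, with the line that a mean of 6 peaks draws. Man2c1os has the shortest span and the most peaks per kb of the opposite-strand RNAs, and Sorbs2os stands well above the line at a long span.

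Cocaine and saline were then compared. Of the 34 opposite-strand RNAs of the cocaine table, 14 were also in the saline table (41.2%), while over all 1049 cocaine genes the share was 23.9%, and over 110 other non-coding genes 22.7%. None was listed for saline alone, beside 198 of all 449 saline genes and 11 of 36 other non-coding genes listed for saline. Levels differ between these sets, with a median of 21.3 cocaine peaks in the opposite-strand RNAs and 12.7 over all genes. Among genes above 30 peaks the shares were 72.7% (8 of 11) and 69.5% (114 of 164), and among genes of up to 30 peaks they were 26.1% (6 of 23) and 15.5% (137 of 885). At a mean above 6 peaks in both tables, 6 opposite-strand RNAs were left for saline: Sorbs2os, Grin1os, Bcas1os2, Nrg3os, Rsf1os2 and Brip1os. Beside them, 137 saline genes in all passed that level.

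All 14 had more peaks on average in cocaine, 3.60 to 12.5 times as many with a median of 6.403, beside a median of 4.54 over the 251 genes in both tables. Listing needs a mean above 6 peaks in cocaine and only above 1 in saline. Of the 14, just the 6 with a saline mean above 6 could therefore have had fewer peaks in cocaine. In 12 of the 14 every cocaine library was above every saline library, which held for 77.7% of all genes in both tables. The exceptions were Grip1os1 and Scpep1os. These ratios follow the totals of the libraries, which differ for reasons the tables do not show. Summed over the 14, there were 757.7 ± 31.3 peaks per cocaine library and 113.0 ± 16.6 per saline library (SD, n = 3 each), a ratio of 6.71, where all 251 genes together had a ratio of 4.23. As a share of the peaks in those 251 genes, the 14 held 5.47% ± 0.233 in the cocaine libraries and 3.44% ± 0.392 in the saline libraries (SD, n = 3 each). The highest saline share was 3.89%, below each cocaine share, so that the treatments did not overlap. With 3 libraries against 3, an exact 2-sided permutation test cannot go below p = 0.1, and these sums are given as a description, since the RNAs were chosen with results known.

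**Figure D4:**
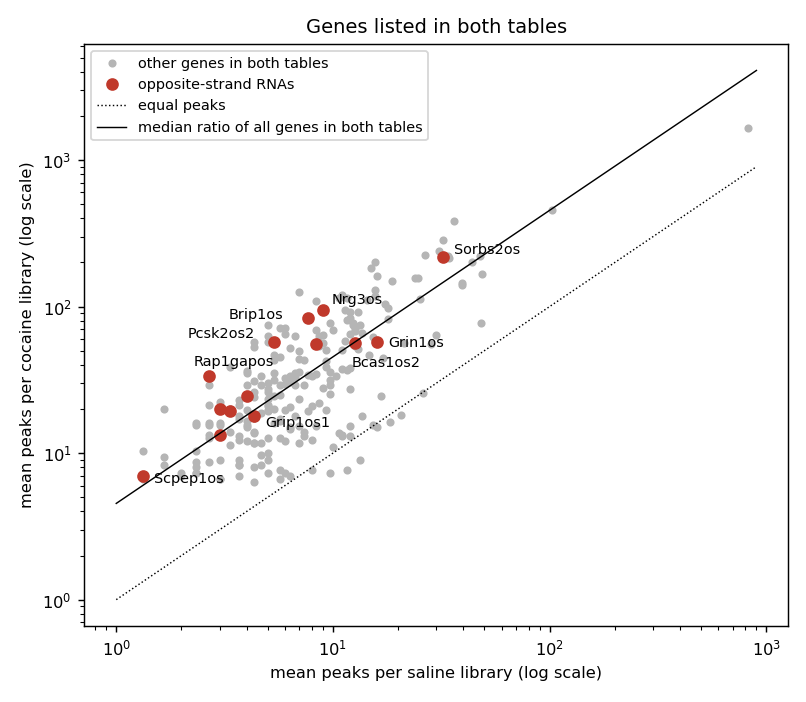
Mean peaks per cocaine library against mean peaks per saline library (both axes log) for the 251 genes in both tables, with opposite-strand RNAs as large points. The solid line marks the median ratio of all these genes (4.54), and Rap1gapos, Brip1os, Nrg3os and Pcsk2os2 lie above it while Grin1os lies below.

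The share of each gene in the peaks of the tested genes was compared with edgeR's quasi-likelihood test on totals scaled by TMM factors, over 202 of the 251 genes. Of the 12 opposite-strand RNAs tested, 3 passed an adjusted p of 0.05 with more of the peaks in cocaine and 0 with fewer, beside 10.4% of all tested genes higher and 17.8% lower. At an unadjusted p under 0.05, 4 of the 12 passed, all of them higher, beside 35.1% of all tested genes in either direction and 13.9% higher. The 4 are near the first of these shares. Their median log2 difference was 0.42, beside -0.02 over all tested genes, and 9 of the 12 were above 0. Among the 21 other non-coding genes tested, 1 was higher and 0 were lower, 13 were above 0 and the median was 0.17, while the 93 coding genes had a median of -0.24 and 27 of the 36 lower calls. The lack of lower calls was thus shared with the other non-coding genes. Bcas3os1 and Scpep1os had too few peaks to be tested.

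The share of Nrg3os in cocaine exceeded that in saline by 1.09 in log2 (SE 0.35, edgeR adjusted p = 0.0319). Brip1os was higher by 1.14 (SE 0.39, edgeR adjusted p = 0.0422) and Pcsk2os2 by 1.12 (SE 0.40, edgeR adjusted p = 0.0481). In each of the 3, the lowest cocaine library had at least 50 peaks and the highest saline library at most 14. All 3 calls sit close to the threshold. They were lost together without any 1 of the cocaine libraries or without saline library 1, fits in which the edgeR adjusted p of the 3 ranged up to 0.200. Without saline library 2, Brip1os alone of the 3 stayed below 0.05, and without saline library 3 only Nrg3os. Rap1gapos had the largest difference, 1.32, and the largest error of these, 0.52, and did not pass (edgeR adjusted p = 0.0702).

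The RNA with most peaks, Sorbs2os, had a log2 difference of 0.43 (SE 0.22, edgeR adjusted p = 0.175). This moved with single libraries and with the scaling. Without saline library 2 the difference was 0.74 and passed (edgeR adjusted p = 0.0486), while without cocaine library 2 it was 0.17. With all libraries but no TMM factors, Sorbs2os had a difference of 0.64 and passed (edgeR adjusted p = 0.0324). Over all alternatives its adjusted p ranged from 0.0324 to 0.941. Rsf1os2 and St8sia3os had differences of 0.42 each, Grip1os2 0.32 and Rptoros 0.23, all with an SE of 0.40 or more. The remaining 3 were below 0 with errors about as large as the value or larger: Grin1os at -0.45 (SE 0.40), Grip1os1 at -0.26 (SE 0.61) and Bcas1os2 at -0.15 (SE 0.43). Uros, the coding gene caught by the rule, had 2, 9 and 14 cocaine peaks and 7, 1 and 3 saline peaks, and was not tested.

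Because the calls are relative, they move with the total that the shares are taken of. Without TMM factors the median of all tested genes moved from -0.02 to 0.19, and 5 opposite-strand RNAs were higher, Sorbs2os and Rap1gapos among them, with 31 of all genes higher and 29 lower in place of 21 and 36. On totals of all listed genes that median was -0.47, no opposite-strand RNA was called, and 5 genes were higher and 52 lower. There, 1 of 13 tested passed at an unadjusted p under 0.05 (beside 35% of all genes, 77 of 220). It was Grin1os, with a lower share in cocaine (log2 difference -0.86, edgeR unadjusted p = 0.0478). A change of total shifts all genes by about the same amount, so Grip1os2 and Rptoros were below 0 in that scaling and Bcas1os2 above it without TMM factors. With TMM factors the median of the opposite-strand RNAs was 0.45 above that of all tested genes. Without 1 of the cocaine libraries, where 7 of them were among 103 to 108 genes tested, it was 0.26, 0.15 or 0.24 above.

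**Figure D5:**
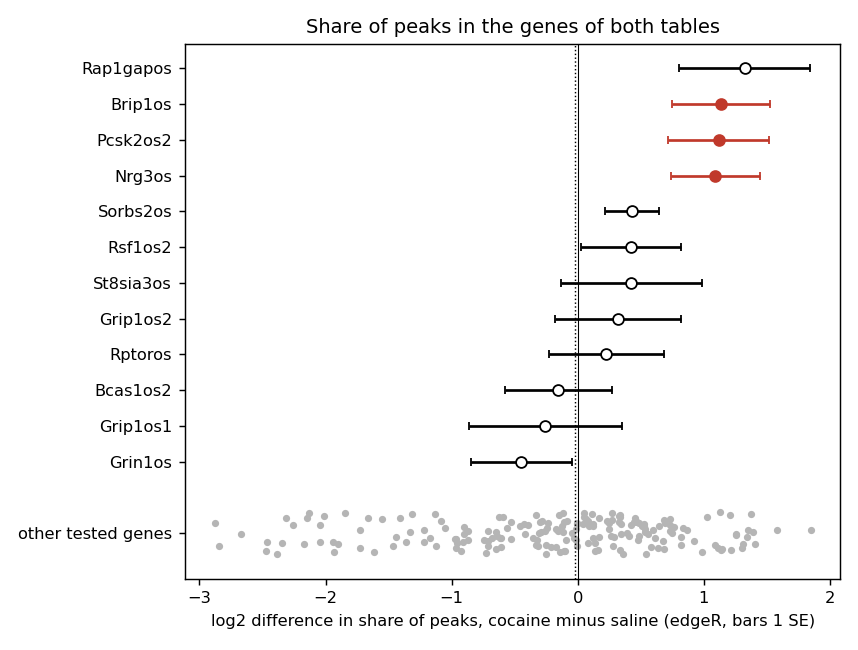
Log2 difference in share of peaks (cocaine minus saline, edgeR with TMM factors) for the 12 opposite-strand RNAs tested, with bars of 1 SE, above the same value for the other tested genes in grey; filled points passed an adjusted p of 0.05 and the dotted line is the median of all tested genes. Brip1os, Pcsk2os2 and Nrg3os are filled, and Rap1gapos above them is not.

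The spread between libraries of a treatment was then set beside that of all genes. The median ratio of variance to mean was 2.45 over the 34 RNAs in cocaine, beside 1.97 over all listed genes, and 1.54 over the 14 in saline, beside 0.571. These sets were not matched for level: the median saline mean was 4.83 peaks in the 14 and 4 over all saline genes. Listing also needs at least 1 peak in each library, which limits the spread of genes with low means. The median coefficient of variation was 33.1% in cocaine, beside 37.3% over all genes, and 46.6% in saline, beside 36.5%. Variation was uneven among them, from 6.90% in Nrg3os and 7.60% in Sorbs2os to 82.2% in Rab11fip4os1 and 93.7% in Scpep1os. In saline, library 2 was the lowest for 6 of the 14, library 1 for 2, library 3 for 1, and 5 had ties. Over all 449 saline genes, library 2 was the lowest for 113, library 1 for 88 and library 3 for 99, with 149 ties. Sorbs2os, Brip1os and Grip1os1 had their highest saline value in library 2, and Sorbs2os held there 40.6% of the opposite-strand peaks against 22.6 and 24.2% in the other two.

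Of the other named non-coding RNAs on a list of 25 that holds Malat1, Meg3 and Xist, only Tsix and Dlx6os1 were in a table. Tsix, the antisense RNA of Xist, had 225, 221 and 216 cocaine peaks and 50, 66 and 27 saline peaks, a level near that of Sorbs2os in cocaine. As for the hosts, a peak where Tsix and Xist overlap could have been counted for either, and this was not tested.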

How the data were processed

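The authors deposited peak counts, whole numbers for each gene and library, in 1 table per treatment, per the file headers and values. Reads were processed with cutadapt, STAR and mm10, per the submitters' processing notes, without versions. The table names point to CLIPper. Its settings, any use of input and how peaks were assigned to genes: not given in the sources used here. Each table also holds the authors' deposited score, the mean of the 3 columns, used only as a check. The letter c or s in a table's name, also the first letter of each library's name, gives the treatment. Columns are not numbered by replicate.

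Each gene was counted once (1084 lines for 1049 genes in cocaine and 463 for 449 in saline; repeated lines never differed in values). Of 894 genes with 1 symbol, 891 were found in RefSeq GRCm38.p6, which gave classes, spans, starts and strands.

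Tests on the genes shared by the tables used edgeR 4.0.16 (TMM, filterByExpr, quasi-likelihood test, Benjamini-Hochberg adjustment, FDR 0.05) in R 4.3.3, checked on simulated data. DESeq2 1.42.0 was an alternative. Planned exact permutation tests of sums over the RNAs were run and are not printed, since 3 libraries against 3 cannot pass and the RNAs were chosen with results known. Named were all RNAs of the rule, in full those in both tables and the leading ones of cocaine alone, and every listed host. The RNAs, lists and role groups were chosen with earlier results of these data known. Python 3.11.15, pandas 2.3.3 and NumPy 2.4.6 were also used.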

Additional observations from a re-analysis of the deposited data

How the results depend on the processing

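No opposite-strand RNA was called lower under any of the 12 alternative fits. The number called higher, 3 of 12 in edgeR with TMM factors, was 5 of 12 without factors (beside 15.3% of all genes tested). It was 0 of 13 on totals of all listed genes (2.27%), 4 of 12 with RLE size factors (12.4%) and 3 of 14 without the filter on low counts (8.37%). DESeq2 called 2 of 14 (7.97%), and 2 of 6 were called at a mean above 6 peaks in both tables (12.9%, added after seeing the data). Leaving out 1 library at a time gave 0 to 2, beside 4.17 to 8.71% of all genes. Of the opposite-strand RNAs, 7 were tested without a cocaine library and 13 without a saline library. Leaving out a cocaine library reduced the genes tested to between 103 and 108. Signs turned, without a call, with the shift of all genes under another total or with 1 library, for Bcas1os2 (0.057 without factors, -0.53 to 0.26 leaving out 1 library), Grip1os1 (-0.53 to 0.95, above 0 without saline library 2), and Grip1os2 (-0.088) and Rptoros (-0.17) on totals of all listed genes. The number listed for saline, 15 with Uros, was 6 at a mean above 6 peaks, a stricter cutoff. The median of peaks per kb was 2.35 times that of all listed genes and 0.751 times that of other non-coding genes. The ratio of summed peaks (6.57 with Uros) and the difference in share of listed peaks (1.65 percentage points, over 34 RNAs in cocaine and 14 in saline) moved by less than their SD under every alternative run. Without the gene with most peaks, that difference was 1.15 percentage points. No paired analysis was possible because the columns carry no replicate numbers. Exon lengths were not used here, and summing repeated lines was not run because none differed. Depth is known only as peaks.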
